A study of Mus musculus with 6 samples.

Results

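Genes of the axonemal dynein heavy chains (Dnah) and of the cilia and flagella associated proteins (Cfap) were examined in open chromatin maps of mouse pancreatic β-cells. All protein-coding genes of the mm10 RefSeq annotation whose symbol is Dnah or Cfap followed by a number were taken, which gave 49 genes of 21887, made up of 15 Dnah and 34 Cfap genes. The families were chosen by their covered length and gained regions in the knockout against control comparison of these same libraries. Their values in that comparison are therefore a description. A gene named as called below is one that passed the threshold of a fit over all genes, and the mark is no independent evidence of a difference at these genes.

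The maps came from ATAC-seq, in which the transposase Tn5 inserts sequencing adapters into accessible DNA, on insulin-producing β-cells that carried the red fluorescent marker Tomato and were flow-sorted out of dispersed mouse islets. A library was made from 14000 to 45000 nuclei, and 3 libraries carried the genotype label Control and 3 the label Chd4KO, which the series text also calls Chd4Db. Both groups had received tamoxifen. Chd4 is the helicase of the NuRD chromatin remodelling complex, and the question was what becomes of open chromatin in mature β-cells without it. The sources used here do not name the driver of recombination, the alleles of the control mice or their age, nor say if each library stands for an animal of its own. Tests between libraries thus set the genotype difference only against the spread among these samples, and that spread may be technical.

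The libraries differed in how much was called, and this difference goes with genotype in every comparison. Control libraries held 100109 to 110693 peaks over 58.0 to 63.8 Mb, and knockout libraries 119088 to 124125 peaks over 65.8 to 69.1 Mb. Jaccard indices of shared regions were 0.785 to 0.825 within a genotype and 0.626 to 0.647 between them, and no library repeated another. Read depth is unknown, because the peak lists hold no counts. Peaks do not measure the deletion of Chd4, so the genotype labels could not be checked.

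Motile cilia and sperm flagella beat because dynein motors slide the microtubule doublets of the axoneme against each other. Each Dnah gene encodes a heavy chain, the motor subunit, of either an outer or an inner dynein arm. Cfap proteins lie inside the doublets, in the central apparatus, in the radial spokes, in the complexes that tether and regulate the arms, or act in the assembly of the arms. Transcription of these genes in multiciliated cells is known to depend on RFX factors, which bind the X-box, and on the forkhead factor Foxj1. A β-cell carries a primary cilium, classically described as a sensory organelle without dynein arms. Cfap126, also called Flattop, is known as a marker of mature β-cells.

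Open chromatin was present at the start of most of these genes in every library, and it was there in both genotypes. The promoter table of RefSeq (GRCm38.p6, the assembly that mm10 names) held 44 windows for 41 of the 49 genes, each running from 250 bases before to 50 after a transcript start. Between 35 and 36 of the 44 windows had a peak in each of the 6 libraries. A region called in all 6 libraries lay over the window of 32 of the 41 genes (78.0%), against 61.0% of 17492 protein-coding genes with a window. Such a region was found at 25 of 27 Cfap genes and at 7 of 14 Dnah genes. A region with a peak in each of the 3 knockout libraries but in none of the controls is called gained here, and the reverse is called lost. No gained and no lost region lay over any of the 41 genes' windows, where 0.777% and 0.206% of all genes with a window had one.

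The promoters of the 5 genes with the largest difference among those called different between the genotypes (by the rule given with the covered length) and with a peak in the window are shown as the 250 bases before the start, 5′ to 3′ on the gene's strand. Dnah7a and Dnah7c encode inner arm heavy chains and have similar promoters, and in these capitals mark the 39 bases of each that had no match in the other. In Cfap161 capitals mark the 164 bases that lay under the peak of control library 3, since this window was open over different lengths in the libraries. No base is marked in Dnah9 and Cfap36.
Dnah7a (chr1:53706785-53707034, minus strand): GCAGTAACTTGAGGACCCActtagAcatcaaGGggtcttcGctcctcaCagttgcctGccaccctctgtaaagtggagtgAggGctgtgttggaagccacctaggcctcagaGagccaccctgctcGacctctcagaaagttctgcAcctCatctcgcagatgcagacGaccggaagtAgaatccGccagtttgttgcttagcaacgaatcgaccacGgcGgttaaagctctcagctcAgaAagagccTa
Dnah7c (chr1:46425268-46425517, plus strand): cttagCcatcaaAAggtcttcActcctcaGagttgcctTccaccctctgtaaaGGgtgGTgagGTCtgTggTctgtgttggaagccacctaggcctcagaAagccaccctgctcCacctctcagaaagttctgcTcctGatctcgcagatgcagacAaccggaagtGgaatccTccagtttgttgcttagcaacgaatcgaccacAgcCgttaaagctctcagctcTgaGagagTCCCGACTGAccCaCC
Cfap161 (chr7:83794840-83795089, minus strand): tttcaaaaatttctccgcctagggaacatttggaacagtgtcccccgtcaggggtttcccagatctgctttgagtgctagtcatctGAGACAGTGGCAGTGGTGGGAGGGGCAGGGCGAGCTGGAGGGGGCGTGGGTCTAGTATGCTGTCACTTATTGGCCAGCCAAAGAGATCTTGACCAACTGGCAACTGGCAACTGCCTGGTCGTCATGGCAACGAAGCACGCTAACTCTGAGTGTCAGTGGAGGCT
Dnah9 (chr11:66168552-66168801, minus strand): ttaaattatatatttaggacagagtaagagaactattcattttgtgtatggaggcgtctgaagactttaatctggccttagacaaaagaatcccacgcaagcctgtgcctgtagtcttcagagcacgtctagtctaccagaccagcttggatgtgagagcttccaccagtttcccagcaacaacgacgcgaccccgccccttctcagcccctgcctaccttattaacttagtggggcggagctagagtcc
Cfap36 (chr11:29247273-29247522, minus strand): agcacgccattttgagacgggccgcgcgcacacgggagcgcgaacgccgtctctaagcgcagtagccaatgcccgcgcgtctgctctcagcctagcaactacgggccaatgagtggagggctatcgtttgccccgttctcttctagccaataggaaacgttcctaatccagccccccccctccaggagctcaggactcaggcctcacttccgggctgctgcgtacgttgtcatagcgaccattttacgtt

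The window of Cfap161 was the 1 of these 5 that did not have a peak in every library. The peak covered 0, 290 and 200 of its 300 bases in control libraries 1 to 3 and all 300 in each knockout library. The windows of Dnah7a, Dnah7c and Cfap36 were covered in full in all 6 libraries. Between 275 and 288 of the 300 bases were covered in each library at Dnah9. After alignment, the 300-base windows of Dnah7a and Dnah7c were 84.7% identical, those of Dnah7a and Dnah7b 76.0% and those of Dnah7b and Dnah7c 71.3%. Peaks in regions this alike depend on how reads that match several places were treated, which the sources used here do not say.

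The X-box, as a consensus of 14 bases searched on both strands, was in 7 of the 44 windows (15.9%), against 2.24% of 21263 windows of protein-coding genes. Its matches are shown as 30 bases with the motif in capitals, because RFX factors are known to act on cilia genes through it. The bases run 5′ to 3′ on the gene's strand, which is minus for Cfap206, Cfap298, Cfap20dc and Dnah17. At Cfap44, Cfap45 and Cfap206 the consensus reads on the strand opposite to the bases shown. A match describes letters and not a bound site.
Cfap44 (chr16:44394764-44394793): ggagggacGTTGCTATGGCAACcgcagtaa
Cfap45 (chr1:172521103-172521132): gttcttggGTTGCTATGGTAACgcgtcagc
Cfap61 (chr2:145934768-145934797): gccgcgtcGTTTCCTTAGCAACtgtgtgcg
Cfap206 (chr4:34730208-34730237): cgcgttccGTTTCCACGGTTACgcgactgc
Cfap298 (chr16:90935016-90935045): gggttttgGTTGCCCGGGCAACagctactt
Cfap20dc (chr14:8666371-8666400): gcccctcaGTTGCCTGGGCAACggctcagc
Dnah17 (chr11:118129357-118129386): acgcccttGTCACCAGCGCAACcacagata

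The 6 Cfap windows with an X-box all lay under a region called in all 6 libraries. The window of Dnah17 had no peak in any library. None of the 6 Cfap genes passed the threshold for a difference between genotypes, and their log2 fold changes ran from -0.08 at Cfap61 to 0.20 at Cfap44. The forkhead core GTAAACA, also searched on both strands, was in 3 of 44 windows (6.82%), at Cfap20, Cfap43 and Dnah17, against 3.01% of all windows.

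Over gene spans and their flanks, starts included, the genotypes differed at part of the genes. The measure per gene was the covered length, the number of bases the authors' peaks cover between 10 kb before and 10 kb after the gene span (the territory), scaled so that all libraries had the same total. Fold changes are of log2(covered length + 300 bp), knockout over control, and their errors are standard errors from limma with 3 libraries against 3. A gene was called where the Benjamini-Hochberg adjusted p of limma over 17711 tested genes was under 0.05. All 49 genes passed the minimum of 300 bp and entered the fit.

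Of the 49 genes, 12 were called higher in the knockout (24.5%), where percent called was 7.57 over all tested genes, and 1 was called lower, where it was 14.6. The genes were put forward from this contrast, so nothing is read from that difference. Without scaling, 17 were called higher and 1 lower, against 14.6% and 2.88% of all genes. Those added without scaling were Cfap20, Cfap44, Cfap54, Cfap74 and Cfap300. Scaling lowers the median log2 fold change of all genes by 0.15, from 0.06 to -0.09. The median over the 49 genes was 0.05, that of the Dnah genes 0.17 and that of the Cfap genes -0.01. In 17 genes every knockout library lay above every control library (34.7%; 13.1% of all genes), and in 5 every one lay below (32.7% of all genes). Without scaling these counts were 24 and 1, against 28.5% and 9.68% of all genes.

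**Figure D1:**
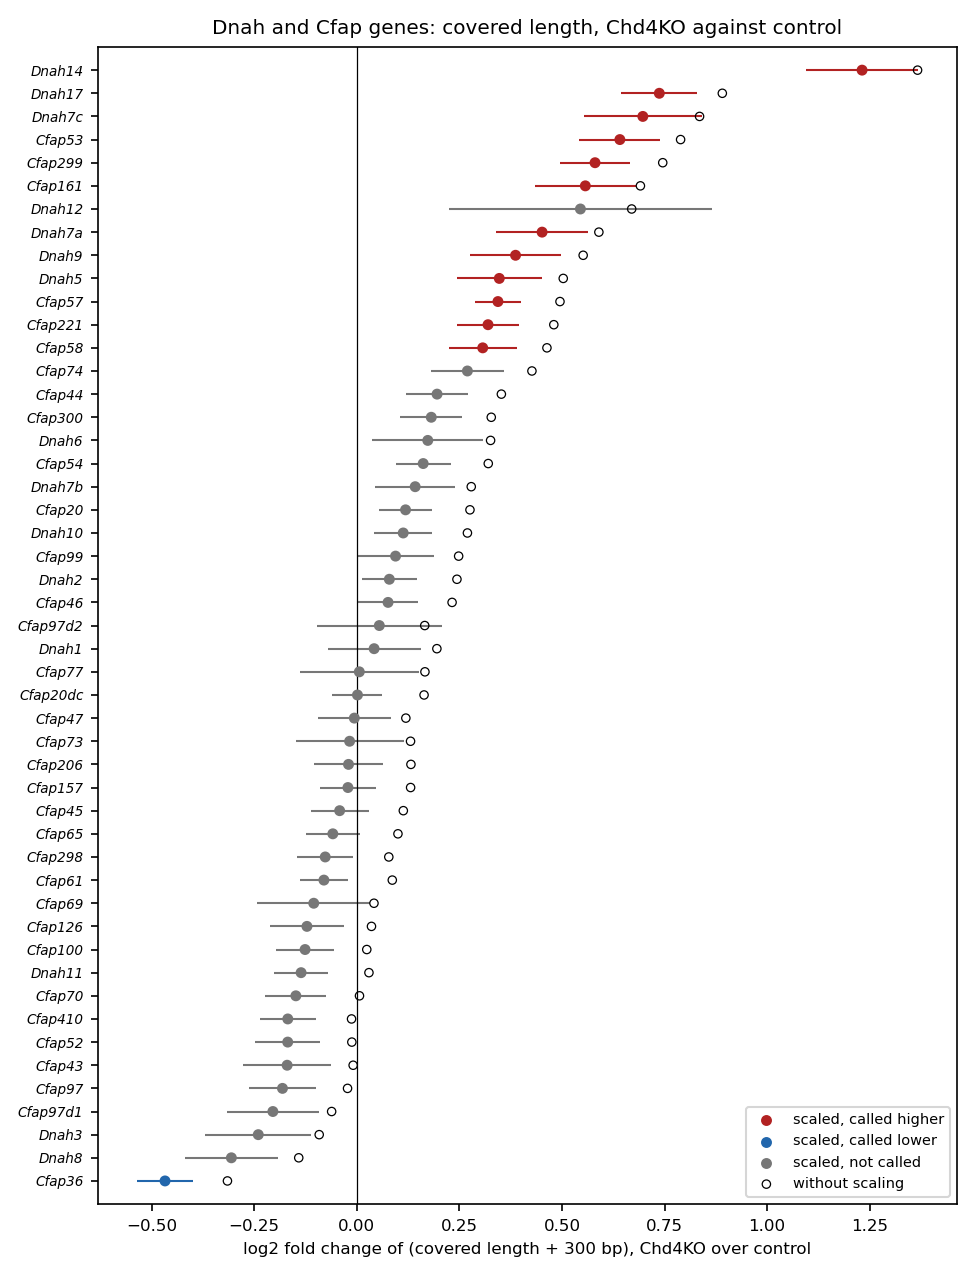
Log2 fold change of covered length + 300 bp (x axis, knockout over control, with standard error) for each of the 49 genes (y axis), with open circles for the same value without scaling. The 12 genes called higher run from Dnah14 at 1.23 to Cfap58 at 0.31, and Cfap36 at -0.47 is the 1 called lower.

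Covered length at markers of β-cells and of other cells also differed with genotype. The summed covered length of 8 β-cell markers, none of them at 0 in all libraries, was 31539 to 34169 bp in control and 26370 to 27557 bp in knockout libraries. That of 6 α- and δ-cell markers was 10106 to 10343 and 7104 to 7696 bp. That of 5 acinar markers was 1546 to 1632 and 2885 to 3073 bp, with the defining genes Cpa1 and Pnlip at 0 in all 6 libraries. That of 3 mesenchymal markers was 5542 to 6042 and 7330 to 7904 bp, and those of duct (9845 to 13616 bp), endothelial (7068 to 8125 bp) and leukocyte markers (5607 to 8064 bp) overlapped between genotypes. A sum can hide genes that moved in opposite directions. Of 4 leukocyte markers 2 were called higher and 1 lower, and 1 of 4 duct and 1 of 4 endothelial markers were called lower. Over all tested genes 7.57% were called higher and 14.6% lower. The part of cell composition and of the number of called peaks in the differences at Dnah and Cfap genes was not tested. In bulk material, a change in the share of a cell type and a change within cells cannot be told apart.

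Of the 5 heavy chains of the outer arm, 3 were called higher. Each count by role, here and below, stands beside 7.57% of all tested genes called higher and 14.6% called lower. The genes were put forward from this contrast, so nothing about a role is read from these counts. Dnah17, the outer arm chain of sperm flagella, had 2470, 2083 and 1882 bp in control libraries 1 to 3 and 3815, 3874 and 3585 bp in the knockout libraries. The groups stood well apart, and the log2 fold change was 0.74 ± 0.09. Its 2 gained regions were among the widest of the 57 found at these genes. The one inside the gene, chr11:118049481-118050198, had an authors' fold enrichment of 28.6, 27.8 and 19.7 in the 3 knockout lists. The other, chr11:118132941-118134041, spanned 1101 bp and lay 2222 bp outside the gene span. A region lost in the knockout also lay inside the gene, at chr11:118030943-118031646. With 1 kb around the span, which leaves the outer region out, Dnah17 was at 0.28, and with 50 kb, which holds both regions, it was at 0.19. It was called with neither.

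Dnah9 and Dnah5, outer arm chains of respiratory cilia, were also called higher. Dnah9 had 6724, 8473 and 7884 bp in control and 10368, 11269 and 8834 bp in knockout libraries, a log2 fold change of 0.39 ± 0.11. The lowest knockout library, the third, came close to the highest control. Dnah9 held 32 regions, 4 of them gained and 1 lost, and the 4 gained regions lay within the stretch chr11:65972224-66005768. Dnah5 had 3095, 2418 and 2820 bp in control and 3658, 3213 and 3962 bp in knockout libraries, a log2 fold change of 0.35 ± 0.10, with 3 gained regions inside the gene. Dnah5 was the called Dnah gene with the smallest difference. Neither gene was called with 50 kb around the span, at 0.22 for Dnah9 and 0.27 for Dnah5, or with the 50000 strongest peaks of each library, at 0.46 and -0.23. Dnah5 was also not called with 1 kb around the span or when genes with any covered base entered the fit, both at 0.35.

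The other outer arm chains lay on the opposite side of 0 after scaling. Dnah8, a sperm outer arm chain, had 8885, 8093 and 8050 bp in control and 7690, 7019 and 5528 bp in knockout libraries. All knockout libraries were below all controls, as at 32.7% of all tested genes. The log2 fold change of -0.31 ± 0.11 was not called, and Dnah8 had 2 lost and no gained regions. Without scaling its libraries overlapped and the log2 fold change was -0.14. Dnah11, an outer arm chain of respiratory cilia, had 9526, 10023 and 10227 bp in control and 8609, 8703 and 9735 bp in knockout libraries. Its groups overlapped, its log2 fold change was -0.14 ± 0.07, and none of its 19 regions was gained or lost. Without scaling Dnah11 was at 0.03.

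Inner arm heavy chains included the gene with the largest difference, and 3 of 10 were called higher (7.57% of all tested genes). Dnah14 had 763, 1131 and 700 bp in control libraries and 2431, 2576 and 2209 bp in knockout libraries. Every knockout library lay far above every control, and the log2 fold change of 1.23 ± 0.14 was the largest of the 49. Of its 8 regions 2 were open in all libraries and 4 were gained. The gained regions lay at chr1:181583173-181583570, chr1:181617375-181617696, chr1:181635131-181635482 and chr1:181637894-181638442 and were all inside the gene. The first had an authors' fold enrichment of 19.2, 23.0 and 11.9 in the knockout lists. The promoter window of Dnah14 had no peak in any library. With 50 kb around the span the log2 fold change was 0.18 and Dnah14 was not called.

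**Figure D2:**
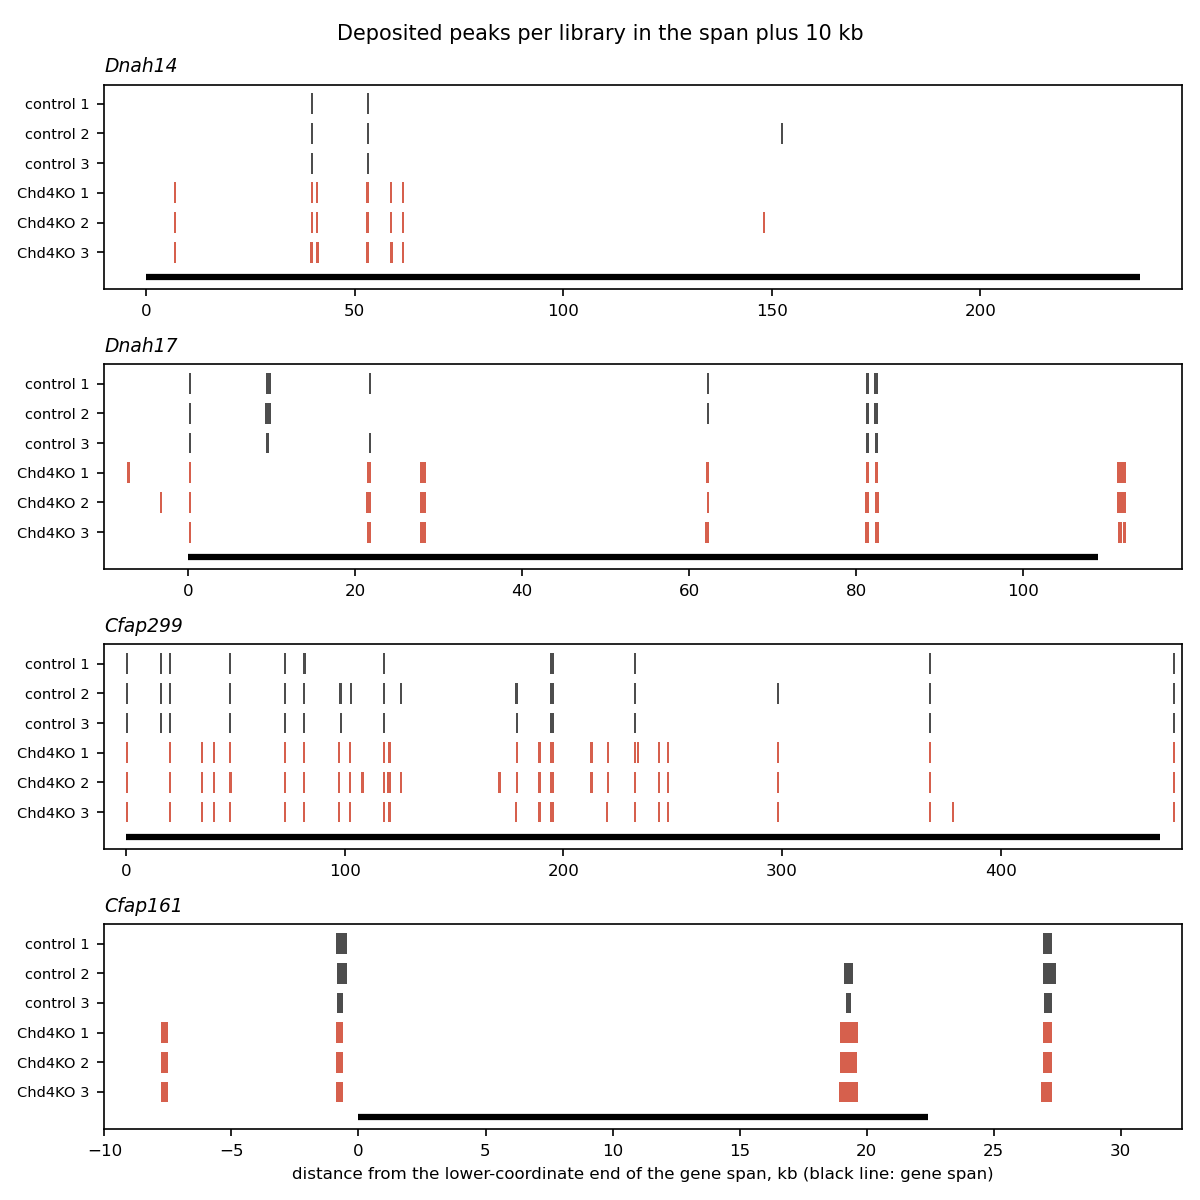
Deposited peaks of each library (rows) along the territories of Dnah14, Dnah17, Cfap299 and Cfap161 (x axis, distance from the lower-coordinate end of the gene in kb; black line, gene span). The gained regions appear as columns present in the 3 knockout rows alone, 4 in Dnah14, 2 in Dnah17, 8 in Cfap299 and 1 in Cfap161.

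Dnah7 has 3 copies on chromosome 1, of which 2 were called higher. Dnah7c had 1193, 966 and 921 bp in control and 1972, 1433 and 2197 bp in knockout libraries, a log2 fold change of 0.70 ± 0.14. With 50 kb around the span it was at 0.26 and not called, and it was not called with the 50000 strongest peaks, at 0.86. It was the 1 gene called higher with no gained region: its promoter region was open everywhere, and the other 4 regions were called in 2 or 3 knockout and 0 to 2 control libraries. Dnah7a had 1289, 992 and 997 bp in control and 1596, 1418 and 1791 bp in knockout libraries, a log2 fold change of 0.45 ± 0.11. Its 2 gained regions, chr1:53709566-53709922 and chr1:53712396-53712675, lay 2265 and 5095 bp outside the span, beyond the promoter shown above. With 1 kb around the span Dnah7a was at -0.07 and with 50 kb at 0.20, and it was called with neither. Dnah7b had 1010, 1138 and 1340 bp in control and 1291, 1264 and 1370 bp in knockout libraries, which overlapped, with 1 gained region at chr1:46081641-46082089. Whether the copies differ from each other was not tested.

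The remaining inner arm chains were not called, and the groups overlapped in all of them. Dnah12 had 939, 1185 and 376 bp in control and 1518, 1667 and 780 bp in knockout libraries, so that control library 3 and knockout library 3 were each the lowest of their group. Its log2 fold change of 0.54 ± 0.32 had the largest standard error of the 49 genes. Dnah6 had 2740, 2326 and 2475 bp in control and 3026, 2252 and 3439 bp in knockout libraries. Neither Dnah12 nor Dnah6 had a gained or lost region.

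Dnah2 and Dnah10, chains of the inner arm with a pair of heads, each had 2 gained regions while their totals moved little. Dnah2 had 8110, 8099 and 8128 bp in control and 8888, 9059 and 7863 bp in knockout libraries. Dnah10 had 3232, 3473 and 3078 bp in control and 3784, 3528 and 3342 bp in knockout libraries. In both genes 1 knockout library fell among the controls or below them.

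Dnah1 and Dnah3 each had a lost region outside the span. The values of Dnah1 were 2810, 2279 and 2400 bp in control and 2934, 2655 and 2175 bp in knockout libraries. Those of Dnah3 were 2627, 2438 and 1848 bp in control and 2182, 1732 and 1771 bp in knockout libraries, and it had 1 gained region as well. Dnah3 had the second lowest log2 fold change of the heavy chains, -0.24 ± 0.13.

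**Figure D3:**
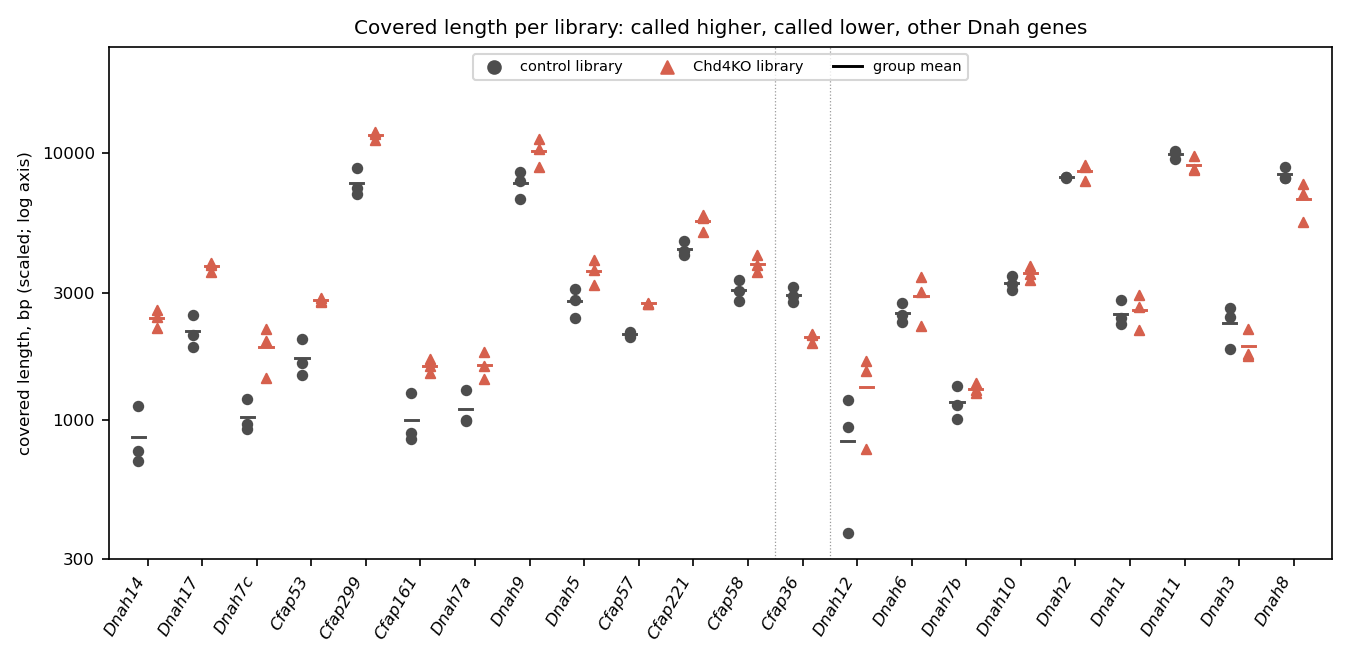
Scaled covered length in bp (log axis) in each control (circles) and knockout (triangles) library for the 12 genes called higher, Cfap36 and the 9 other Dnah genes; short bars are group means. Dnah14 has the widest gap, while Dnah12 and Dnah6 overlap.

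Among the proteins that line the inside of the doublets, 2 of 6 genes were called higher (7.57% of all tested genes). Cfap53, known for its part in left-right patterning, had 1477, 2017 and 1628 bp in control and 2872, 2787 and 2774 bp in knockout libraries. The knockout values lay close together and above all controls, with a log2 fold change of 0.64 ± 0.10 and 1 gained region inside the gene. Part of the difference lay in its 3 regions open in all libraries, which covered 1521 bp on average in control and 2013 bp in knockout libraries over their full length before scaling.

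Cfap161, whose promoter is shown above, had 891, 1255 and 846 bp in control and 1597, 1497 and 1684 bp in knockout libraries, a log2 fold change of 0.56 ± 0.12. With the 50000 strongest peaks it was at 1.44 and not called. The region over its promoter, chr7:83794538-83795277, was called over 0, 341 and 200 bp in the controls and over 719, 695 and 740 bp in the knockout. By the authors' −log10 q its peaks stood at the percentiles 93.8, 93.1 and 96.1 within the 3 knockout lists. This promoter lies inside the annotated gene span, and a gained region lay 7486 bp outside the span at chr7:83767826-83768126.

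Cfap126 was not called. Its 3 control values ran from 3296 to 3802 bp and its knockout values from 2886 to 3604 bp, so the groups overlapped, and it had 2 gained regions, chr1:171109671-171109998 and chr1:171121904-171122182. Cfap20, at the inner junction of the doublet, had 1 gained region and a log2 fold change of 0.12. Cfap45 and Cfap52 had no gained or lost region.

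In the central apparatus 1 of 7 genes was called higher (7.57% of all tested genes). Cfap221, a protein of the central pair, had 3 gained regions inside the gene, with values of 4166 to 4667 bp in control and 5051 to 5839 bp in knockout libraries and a log2 fold change of 0.32 ± 0.08. It was not called with 50 kb around the span, at 0.22, or with the 50000 strongest peaks, at 0.42. Cfap74 just missed the threshold at 0.27 ± 0.09 and had 2 gained regions, so it and Dnah5 at 0.35 lie on the 2 sides of the threshold. Cfap54 also had 2 gained regions, and Cfap46 and Cfap65 had 1 each. The gained region of Cfap46, chr7:139676271-139676849, had an authors' fold enrichment of 22.1, 28.0 and 11.8 in the knockout lists.

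Among the 8 genes of the tethers, arm regulators and radial spokes, Cfap57 alone was called higher, where 7.57% of all tested genes were. Cfap57 had 2045 to 2135 bp in control and 2726 to 2739 bp in knockout libraries, and a log2 fold change of 0.34 ± 0.06, the smallest standard error of any called gene. With 50 kb around the span it was at 0.13 and not called. Its gained region, chr4:118612568-118613073, had a fold enrichment of 26.6, 26.8 and 19.3 in the authors' knockout lists. Cfap44, of the complex that tethers the inner arm head, was not called at 0.20 ± 0.08 but held 2 gained regions, of which chr16:44475338-44476308 spanned 971 bp. With 1 kb around the span Cfap44 was called higher, at 0.36. Cfap61 and Cfap206, of the radial spokes, had 2 and 1 gained regions. Cfap43, the partner of Cfap44, and Cfap70, Cfap73 and Cfap100 had none.

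Both genes of arm assembly, Cfap298 and Cfap300, had 1 gained region each and were not called. With 1 kb around the span Cfap298 was called lower, at -0.30, and without scaling Cfap300 was called higher, at 0.33. In the main fit the log2 fold change was -0.08 ± 0.07 at Cfap298 and 0.18 ± 0.08 at Cfap300.

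Of the 11 other Cfap genes, 2 were called higher and 1 lower, where 7.57% and 14.6% of all tested genes were. Cfap299 had 7048, 8762 and 7421 bp in control and 11225, 11792 and 12041 bp in knockout libraries. The groups were separated by more than the spread within either, with a log2 fold change of 0.58 ± 0.08. With the 50000 strongest peaks of each library it was at 0.18 and not called. It is also the longest of the 49 genes, at 473 kb, and its 8 gained regions were the most at any of them. The strongest in the authors' knockout lists, chr5:98576558-98577021, had a fold enrichment of 25.1, 24.4 and 19.9. Cfap299 also held 1 lost region, chr5:98344643-98344932, and 11 regions open in all libraries, which covered 6307 bp on average in control and 6367 bp in knockout libraries before scaling. Cfap58, a protein of the sperm flagellum, had 2793 to 3350 bp in control and 3592 to 4166 bp in knockout libraries and 1 gained region. With 1 kb around the span it was at 0.30 and not called.

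Cfap36, which binds the small GTPase Arl3, was the 1 gene called lower. It had 2921, 2769 and 3137 bp in control and 1940, 2088 and 2103 bp in knockout libraries, a log2 fold change of -0.47 ± 0.07. With the 50000 strongest peaks it was at -0.39 and not called. Both of its lost regions, chr11:29217518-29217854 and chr11:29219154-29219567, also lay in the neighbouring gene Ppp4r3b, while its promoter, shown above, was covered in full in every library. Cfap410, linked to the primary cilium, had 1 gained and 1 lost region. Single gained regions were found at Cfap77, Cfap97d1, Cfap97d2 and Cfap99.

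Without 1 library at a time, 6 of the 13 called genes stayed called in all 6 fits: Dnah14, Dnah17, Cfap53, Cfap299, Cfap57 and Cfap36. The number called higher was 5 without knockout library 1 and 6 without control library 3, 8 without control library 1, control library 2 or knockout library 3, and 11 without knockout library 2. Of the other 7, Dnah7c and Cfap161 were called in 3 of the 6 fits, Dnah7a, Dnah5, Cfap221 and Cfap58 in 2 and Dnah9 in 1. The log2 fold changes of these 7 ran over 0.59 to 0.85 for Dnah7c, 0.48 to 0.69 for Cfap161, 0.38 to 0.55 for Dnah7a, 0.30 to 0.48 for Dnah9, 0.26 to 0.42 for Dnah5, 0.28 to 0.38 for Cfap221 and 0.25 to 0.37 for Cfap58.

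The territories of the 49 genes held 438 regions when peaks of all libraries were merged wherever they overlapped by at least 1 bp. Of these, 57 were gained (13.0%), where 10.3% of all 156745 regions and 8.93% of those in a gene territory were gained. Lost regions numbered 10 (2.28%), against 2.62% and 2.83%, and 222 regions were open in all 6 libraries (50.7%, against 48% and 50.2%). By library, 276, 296 and 274 of the regions were called in control libraries 1 to 3 and 361, 366 and 337 in knockout libraries 1 to 3.

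Of the 57 gained regions, 41 were inside a gene span (71.9%), 14 in the flanks and 2 within 1 kb of a gene end. The share inside was 56.3% for the regions open in all libraries and 82.6% for regions that were neither gained, lost nor open in all. Gained regions had a median length of 357 bp, lost regions 321 bp and regions of the other patterns 300 bp. That of the regions open in all libraries was 735 bp, and merging peaks of more libraries can itself widen a region. Of the 57 gained regions 30 lay at the 12 genes called higher and 27 at others. At least 1 was found at 31 genes (63.3%; 33.0% of all protein-coding genes) and at least 1 lost region at 8 genes (16.3%; 13.1%).

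The genes are long, and length goes with the number of regions a territory can hold. The median span was 83.9 kb, against 17.2 kb for all protein-coding genes, and it was 174 kb for the 12 genes called higher and 65.5 kb for the other 37. Per Mb of territory there were 7.80 gained regions at the 49 genes and 7.78 at all protein-coding genes. The Dnah genes had 5.59 per Mb and the Cfap genes 10.1, and lost regions numbered 1.37 per Mb against 2.41 at all genes. A further gene lay in the territory of 33 of the 49, and 14 of the 57 gained regions were also in another gene's territory.

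**Figure D4:**
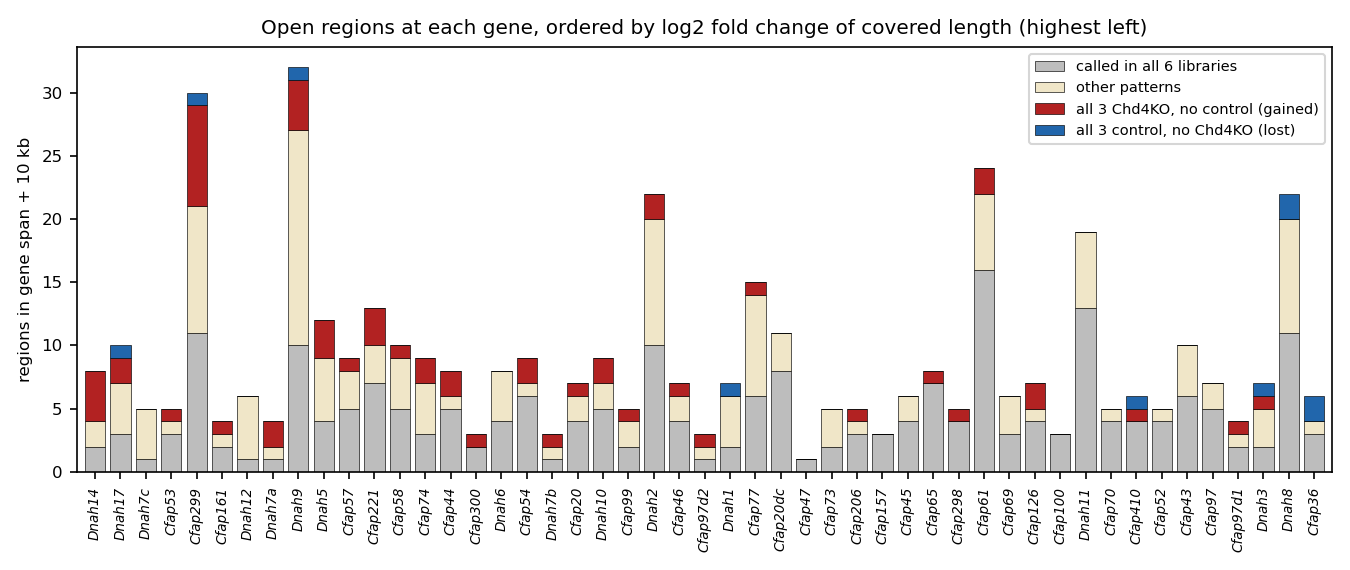
Number of regions (y axis) in the territory of each gene, split into regions open in all 6 libraries, gained, lost and other patterns, with genes ordered by log2 fold change from the highest at the left. Cfap299 holds the most gained regions, 8, and Dnah9 the most regions, 32.

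Among other genes of cilia and of dynein motors, as among all tested genes, more passed the test lower than higher. Lists of 8 kinds held 103 such genes, of which 102 were found and 101 tested with limma as above. Of the 101, 3 rose and 17 fell, where 7.57% and 14.6% of all genes did, and the median log2 fold change was -0.07 against -0.09 over all genes. Without scaling the balance turned, with 14 higher and 4 lower, against 14.6% and 2.88% of all genes. The 3 that rose and, of the 17 that fell, Mcidas, Ccno, Bbs4 and Dync1i2 also passed without scaling. Leaving out 1 library at a time gave 0 to 3 higher and 5 to 14 lower. None was higher without control library 3, knockout library 1 or knockout library 2, where 6, 5 and 5 genes were higher at an unadjusted p under 0.05 in limma. The fewest lower, 5, 6 and 7, came without control library 3, knockout library 1 and control library 1.

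Of the 8 dynein intermediate and light chains, Dnaic2 (Dnai2), an outer arm intermediate chain, rose by 0.21 ± 0.06 on the log2 scale (limma adjusted p = 0.0471). Wdr78 (Dnai4) fell by 0.49 on the log2 scale (limma adjusted p = 0.00899) and Dnali1 by 0.36 (limma adjusted p = 0.0211). Wdr78 passed in all 6 fits that left out 1 library, and Dnaic2 in none of them, with log2 fold changes of 0.18 to 0.24.

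None of 16 tested genes of arm assembly and docking passed limma at the adjusted threshold, and at an unadjusted p under 0.05 0 were higher and 1 lower. In the nexin-dynein regulatory complex and its ruler, Tcte1 rose, at 0.45 ± 0.10, and Ccdc39 fell, at -0.31 ± 0.09, among 11 genes (limma adjusted p = 0.024 and 0.045). Rsph9 of the radial spokes fell, at -0.28 ± 0.08 (limma adjusted p = 0.0451), as did Spag6 and Stk36 of the central pair, at -0.34 and -0.36 (limma adjusted p = 0.0115 and 0.0387). When 1 library at a time was left out, Rsph9 and Stk36 passed in none of the 6 fits, Ccdc39 without knockout library 3 alone, and Tcte1 not without control library 3, knockout library 1 or knockout library 2. Ccdc39, Rsph9, Spag6 and Stk36 also did not pass without scaling.

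Of 9 regulators of motile ciliogenesis, Gmnc, Mcidas, Ccno and Myb fell, with log2 fold changes of -0.44, -0.42, -0.42 and -0.29 (limma adjusted p = 0.039, 0.00946, 0.00946 and 0.0348). Over all tested genes 7.57% were higher and 14.6% lower. Mcidas and Ccno are neighbours whose territories hold the same peaks, so their values are the same measurement and the 4 genes stand for 3. Without scaling 2 of the 9 passed higher and 2 lower, against 14.6% and 2.88% of all genes. Without control library 1 the counts were also 2 and 2, against 5.42% and 6.45% of all genes. With the 50000 strongest peaks of each library 2 passed higher and 0 lower (limma; also 2 and 0 at an unadjusted p under 0.05). Gmnc passed without knockout library 3 and Myb without control library 2, and neither passed when any other library was left out. Foxj1 had 999, 912 and 996 bp in control and 1074, 1041 and 1376 bp in knockout libraries. Its knockout values all lay above the controls, at 0.20 ± 0.11 with a limma adjusted p of 0.195. Rfx3, the RFX factor with a known role in islets, was at -0.18 ± 0.12 (limma adjusted p = 0.269).

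Of 31 genes of intraflagellar transport and the primary cilium, which β-cells do build, 1 rose and 5 fell, where 7.57% and 14.6% of all genes did. Bbs5, of the BBSome, rose at 0.36 ± 0.08 (limma adjusted p = 0.0226), and Bbs4 of the same complex fell at -0.48 ± 0.10 (limma adjusted p = 0.0163). Ift43 and Ift74 fell at -0.32 and -0.28 (limma adjusted p = 0.0279 and 0.0309). Without scaling the counts were 3 higher and 1 lower, against 14.6% and 2.88% of all genes. Bbs5 did not pass without control library 1, control library 3, knockout library 1 or knockout library 2, nor with flanks of 1 kb or 50 kb. The number that fell was 1 without control library 1 or knockout library 1, and 0 without control library 3, where 6 were lower at an unadjusted p under 0.05 in limma. Of 9 cytoplasmic dynein genes, Dync1i2 and Dync1li2 fell, at -0.35 and -0.34 (limma adjusted p = 0.00832 and 0.017).

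**Figure D5:**
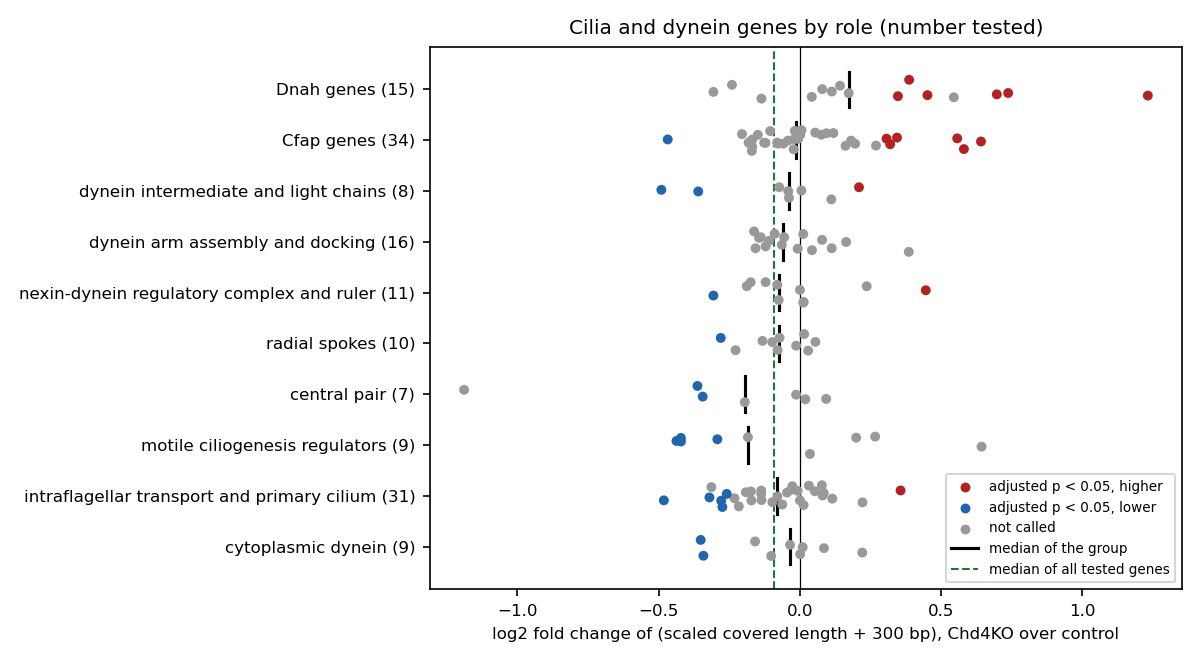
Log2 fold change of covered length + 300 bp (x axis, knockout over control) for every tested gene (points) of the Dnah and Cfap genes and 8 lists of other cilia and dynein genes; black bars are group medians and the dashed line the median of all tested genes. The medians are 0.17 for Dnah and -0.01 for Cfap genes, and those of the 8 lists lie between -0.19 and -0.03.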

How the data were processed

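ATAC-seq libraries of 3 control and 3 Chd4 knockout samples of sorted β-cells were analysed from the narrow peak list deposited for each library, so replicates were not pooled. Per the submitters' processing notes the build was mm10. Peak names in the deposited files carry the words macs2 and cutting site. The version and settings of the caller, the aligner and any read filter were not given in the sources at hand. For each peak the authors deposited a score (a whole number), the fold enrichment as a ratio, and both p and q as −log10. Per the values in the deposited files, the score is 10 times the −log10 q, and every peak is at least 200 bp wide. The summit offset in the deposited files was not used. These values served to describe peaks or to rank and filter them inside 1 list, and no depth in reads can be had from them.

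Bases under peaks were summed per gene over the RefSeq span plus 10 kb, scaled to the mean library total and analysed as log2(bp + 300) with limma 3.58.1 in R 4.3.3 (empirical Bayes with an intensity trend, Benjamini-Hochberg threshold 0.05, genes with a mean of at least 300 bp). The log2 scale with 300 bp added understates changes of genes with few peaks. The gene table gives no strand or exons, so exons and introns were not told apart. Of 103 listed cilia genes, 11 were matched by synonym or older symbol and Rsph10b was not matched. The fit was run on simulated data with independent genes and equal library totals. That run checks the code and says nothing about these genes. The 49 genes and all lists were chosen with earlier results of these data known.

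All genes called or with a gained or lost region are named, with values in every library for the 10 with the largest absolute log2 fold change and for every Dnah gene, and at most 4 passing genes per other list. Alternatives were no scaling, 100 or 1000 bp added, no minimum, flanks of 1 and 50 kb, the 50000 strongest peaks of each library, a −log10 q of at least 3, the replicate number as a block, peaks covering 50% of a region, and leaving out each library.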

Additional observations from a re-analysis of the deposited data

How the results depend on the processing

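Of the 49 Dnah and Cfap genes, the 12 called higher and 1 lower became 4 and 2 with flanks of 50 kb. Over all tested genes 7.70% were then higher and 12.7% lower. With the 50000 strongest peaks 6 and 3 of 47 were called, against 7.07% and 9.36%. With flanks of 1 kb 2 of 48 were lower, against 14.5%. Leaving out each library gave 5 to 11 higher and 1 lower. The 57 gained and 10 lost regions became 95 (11.7%) and 23 (2.84%) of 811 with flanks of 50 kb, against 10.3% and 2.62% of all regions. With the 50000 strongest peaks 19 of 219 were gained, 8.68% against 8.49% of all regions. Leaving out a library gave 57 to 75 and 11 to 14. With a library left out fewer had to agree, so those counts could hardly fall and do not test the regions. Over all tested genes, 1340 higher and 2577 lower became 2586 and 510 without scaling, 1543 were lower with the 50000 strongest peaks, and leaving out a library gave 676 to 1159 and 840 to 2229. The other cilia genes, 3 higher and 17 lower, became 14 and 4 without scaling, 9 were lower with flanks of 1 kb, 6 higher with the 50000 strongest peaks, and leaving out a library gave 0 to 3 and 5 to 14. Signs turned for Dnah7a (-0.072) and Bbs5 (-0.088) with flanks of 1 kb, for Bbs5 (-0.014) and Mcidas (0.021) with 50 kb, and for Dnah5 (-0.23), Dnaic2 (-0.16), Mcidas (0.044), Ccno (0.044) and Dync1li2 (0.00447) with the 50000 strongest peaks. The cause was not tested. The share of higher among all calls was 34.2%, and 83.5% without scaling.

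Deviations of same-numbered libraries from their group means correlated at 0.13, 0.0927 and -0.0274 across 17711 genes, which are not independent. Those of differently numbered libraries correlated at -0.161 to 0.0834. Correlations this weak, from 3 libraries per group, cannot decide whether same-numbered samples were paired. With the replicate number as a block, 1164 genes were higher and 1937 lower. Of the Dnah and Cfap genes 12 were higher and 1 lower, and 12 of the 13 called without the block were shared, Cfap221 being the exception, while Dnah12 was called with the block alone. Of the other cilia genes 3 were higher and 16 lower. Changes of the added bp, the minimum or the −log10 q moved no count by over 1.5 times. Read depth is unknown, and peaks that miss the authors' threshold in 1 library cannot be told apart from closed chromatin.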
